A study of Danio rerio with 24 samples.

Results

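The comparison described here set zebrafish endoderm exposed to retinoic acid (RA) directly against endoderm exposed to BMS493 at the 3-somite (3-S) stage. Its members were taken from the sample labels alone: the 3 RA libraries and the 3 BMS493 libraries of 3-S endoderm, 6 of the 24 libraries of the series. All embryos came from incrosses of the Tg(sox17:GFP) line, in which the sox17 promoter drives green fluorescent protein in endodermal cells. Embryos received RA, the DMSO vehicle or BMS493, which acts as a pan-RAR inverse agonist, from the 2-cell stage until 3 somites, were freed of chorion and yolk, and were sorted for GFP+ cells. DMSO endoderm and GFP- non-endodermal (NE) cells of DMSO embryos, 3 libraries each at 3-S, are used below as a scale. The 8-S libraries came from embryos whose treatment had also ended at 3 somites. RA and BMS493 endoderm thus share the line, the sort, the stage and the treatment window. The difference is taken between these 6 libraries, but all 24 set the size factors and the estimate of spread behind the p-values. The labels do not say whether replicates came from separate clutches, so the p-values below measure only the spread among these samples.

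RA is made from vitamin A and acts through RA receptors (RARs) paired with retinoid X receptors (RXRs), which sit on DNA and recruit corepressors without ligand and coactivators with it. An inverse agonist holds the receptor in its corepressor-bound form, so the present pair of conditions places the pathway at high activity on one side and under active repression on the other. In the vertebrate gut RA patterns the endoderm along the body axis, favouring pancreatic over more anterior fates, and it controls its own level through target genes that store or degrade retinoids.

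Gene counts totalled between 9971059 and 14356761 reads in the RA libraries and between 11994263 and 13829041 in the BMS493 libraries, and 19150 to 21705 genes had at least 1 read in RA endoderm against 19351 to 21398 in BMS493 endoderm. On the first principal component of the 500 most variable genes, which held 68.3% of the variance of the 6 libraries, the RA libraries had scores of 34.9 to 62.0 and the BMS493 libraries scores of -52.4 to -41.5. In each group 1 library stood apart. RA replicate 1 lay 58.0 and 63.5 units from the other RA libraries, farther than these were from each other, and 20.8% of its reads fell outside genes. BMS493 replicate 2 lay 64.7 units from each of the other BMS493 libraries, which were 30.5 apart, with 19.2% of its reads outside genes against 11.6 to 14.7% in the remaining 4 libraries. Counts below are therefore also given without this pair, an alternative chosen after seeing the data. The sorted marker sox17, an endodermal transcription factor, had 3210, 5479 and 12981 normalised counts in RA libraries and 15490, 1045 and 15630 in BMS493 libraries, against 26.6 to 97.3 in NE cells. All 6 libraries were thus far above NE cells, BMS493 replicate 2 was the lowest of them, and the groups overlapped (log2 fold change -0.57 ± 0.70 SE, DESeq2 adjusted p = 0.80).

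Of 18971 genes tested, 1096 differed between RA and BMS493 endoderm at an adjusted p under 0.01 (DESeq2 Wald test), which is 5.78%. Among them 561 were higher in RA (2.96% of those tested) and 535 were lower (2.82%), while the median log2 fold change over all genes tested was -0.00. The estimated changes were large: the median size was 2.92 on the log2 scale among genes that rose and 2.67 among genes that fell, and 164 and 135 of them passed a log2 change of 4. These sizes are unshrunken and belong to genes chosen by the test. In the lower group 17 of the risen and 32 of the fallen genes had no read, and 37 and 29 had 1 to 3 reads. A test against a log2 change of 1 called 206 higher and 162 lower. The 3 RA and 3 BMS493 values did not overlap for 97.3% of the genes called higher and 98.5% of those called lower. Among all genes tested the shares in those directions were 8.51% and 9.07%. The calls were made on these same values, so their separation is a description and not independent support. A second test, edgeR's quasi-likelihood test on 16800 genes, called 697 (4.15%), of which 374 were higher (2.23%) and 323 lower (1.92%), and 696 of them were among the 1096. Without RA replicate 1 and BMS493 replicate 2, 324 genes were called higher and 304 lower, and 606 of these 628 were among the 1096. Leaving out each of the 6 libraries in turn, 305 of the 561 and 284 of the 535 were called every time. Counts are unstranded, and reads that were ambiguous between overlapping genes or matched several places were left out. Overlapping genes and near-identical copies may therefore be undercounted. In sorted bulk cells fewer cells of a type and less RNA per cell cannot be told apart.

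Among the enzymes that remove RA, 2 of 3 cyp26 genes were higher and 1 was lower in RA endoderm. All 3 encode cytochrome P450 enzymes that degrade RA. cyp26a1 had 38176, 23058 and 33201 normalised counts in RA libraries, against 1234, 1406 and 1754 in BMS493 libraries (log2 fold change 4.43 ± 0.36 SE, adjusted p = 4.2e-31). cyp26b1 had 7140, 2485 and 2206 in RA libraries and 25.4, 48.8 and 3.85 in BMS493 libraries (7.25 ± 0.67, adjusted p = 1.7e-24). cyp26c1 ran the other way, with 6.57, 41.0 and 58.8 in RA libraries and 4122, 6824 and 1570 in BMS493 libraries (-6.86 ± 0.62, adjusted p = 1.9e-25). The groups were separate for all 3 genes, by more than 10-fold at their nearest libraries, so that the members of this small family split by direction rather than by size. In the DMSO libraries cyp26a1 averaged 1517 and cyp26c1 5334 normalised counts, both within the BMS493 range, and the log2 fold change of BMS493 over DMSO was -0.05 for cyp26a1 and -0.35 for cyp26c1.

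Genes that lower retinaldehyde or store retinol were also higher in RA endoderm, and dhrs3a and lrata were among the 10 largest rises of the comparison. dhrs3a, whose enzyme reduces retinaldehyde back to retinol, had 12750, 17160 and 12721 normalised counts in RA libraries, against 36.8, 1.06 and 27.0 in BMS493 libraries (9.34 ± 0.46, adjusted p = 6.1e-86). Its copy dhrs3b had 6692, 10554 and 14496 in RA libraries and 1053, 1361 and 1812 in BMS493 libraries (2.91 ± 0.33, adjusted p = 8.2e-17). The first copy was nearly silent in every BMS493 library and the second was not, and neither gene's groups overlapped. lrata, which esterifies retinol for storage, had 4580, 4551 and 1243 in RA libraries and 14, 4.24 and 3.85 in BMS493 libraries (8.85 ± 0.68, adjusted p = 6.1e-36). The related lratb.1 and lratb.2 were lower in RA (-2.39 ± 0.55 and -2.24 ± 0.56), but neither call held without RA replicate 1 and BMS493 replicate 2. aldh1a2, which makes RA from retinaldehyde, had 296, 685 and 505 in RA libraries against 110, 63.7 and 53.9 in BMS493 libraries (2.7 ± 0.48, adjusted p = 7.5e-07), so the synthesis gene was higher on the same side as the storage genes. In all, 4 of 12 tested genes of retinoid storage and synthesis were higher and 2 lower (4 and 0 without the pair of libraries). Of 7 tested retinoid-binding proteins 1 was called, crabp2b, a cytoplasmic RA carrier, which was lower in RA (-2.29 ± 0.41). Its copy crabp2a had 522, 1955 and 503 in RA libraries and 568, 102 and 148 in BMS493 libraries, which overlapped (adjusted p = 0.093).

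The receptors themselves did not move together. Of 9 tested RAR and RXR genes, 2 were higher and 3 lower in RA endoderm (2 and 2 without the pair of libraries). raraa had 5771, 4029 and 5723 normalised counts in RA libraries and 1664, 1419 and 901 in BMS493 libraries (1.96 ± 0.28, adjusted p = 1.7e-10). rarga fell to 2.63, 0.931 and 26.4 in RA libraries, against 631, 538 and 501 in BMS493 libraries (-5.76 ± 0.73, adjusted p = 3.3e-13). Its copy rargb had no read in any RA library and 11.4, 5.30 and 22.1 normalised counts in BMS493 libraries, at least 4.18-fold lower in RA when each RA library is set to a floor of 3 reads. The RA libraries of both copies thus lay under the BMS493 libraries, with RA replicate 3 the highest RA library for rarga. rarab was 1.40 lower on the log2 scale in RA with DESeq2, and this call was lost with edgeR (adjusted p = 0.011) and without the pair of libraries. rxrga, an RXR, was higher (2.63 ± 0.45).

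Among cofactors of nuclear receptors, 2 of 10 tested were called, and both were copies of nrip1, a ligand-dependent corepressor. nrip1a had 218, 251 and 267 normalised counts in RA libraries and 14.9, 3.18 and 8.66 in BMS493 libraries (4.76 ± 0.58, adjusted p = 5.3e-14). nrip1b had 892, 731 and 585 against 115, 137 and 107 (2.62 ± 0.31, adjusted p = 3.3e-15). Neither gene's groups overlapped. Orphan nuclear receptors of the NR2 and NR6 families rose in 4 of 9 tested members and fell in 0, with a median of 1.32. nr2f1a, a COUP-TF, had 7395, 3009 and 4939 in RA libraries and 135, 79.6 and 160 in BMS493 libraries (5.36 ± 0.36, adjusted p = 4.4e-46). The other called COUP-TF genes were nr2f5 (3.77 ± 0.33) and nr2f2 (2.87 ± 0.46), and all 4 calls held without the pair of libraries. nr6a1b had 248, 180 and 958 in RA libraries and 1.75, 0 and 0.963 in BMS493 libraries, where the 3 BMS493 libraries together held 3 reads, and the RA over BMS493 ratio of 510 had a counting interval from 178 to 2530.

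**Figure D1:**
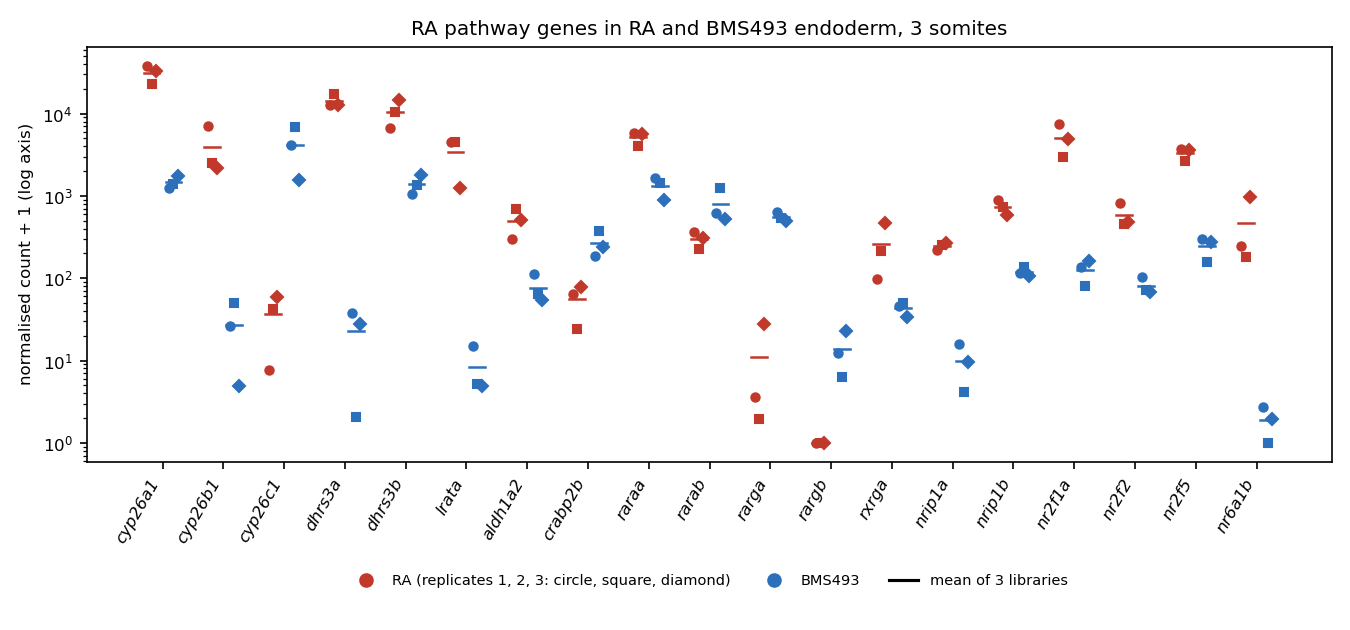
Normalised counts plus 1 on a log axis for 19 genes of RA metabolism, RA receptors, corepressors and orphan nuclear receptors; each symbol is 1 library (RA red, left; BMS493 blue, right) and each bar the mean of 3 libraries. cyp26c1, crabp2b, rarab, rarga and rargb are the genes whose RA libraries lie below the BMS493 libraries.

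The hox genes are transcription factors that mark position along the body axis and are numbered by paralogue group from anterior (1) to posterior (13). Counted over all clusters together, they changed direction along that numbering. Of 24 tested genes of groups 1 to 8, 16 were higher in RA and 2 lower, with a median of 3.07. Of 18 tested genes of groups 9 to 13 (21 are in the files), 0 were higher and 14 lower, with a median of -4.92, or -4.40 when the 4 genes without a read in any RA library are placed at their bound. Without the pair of libraries 16 and 1 of groups 1 to 8 and 0 and 12 of groups 9 to 13 were called. The 4 tested genes of group 1 were all higher. hoxb1b had 5946, 6912 and 5778 normalised counts in RA libraries and 921, 841 and 1068 in BMS493 libraries (2.72 ± 0.29), and hoxa1a had 77.5, 48.4 and 41.7 against 0, 1.06 and 0. Groups 3 and 5 held the calls of lowest adjusted p. hoxb5b had 9490, 15542 and 12861 in RA libraries and 178, 169 and 114 in BMS493 libraries (6.36 ± 0.27, adjusted p = 1.8e-114), the lowest adjusted p among genes that rose. hoxa3a had 4214, 4255 and 4207 against 45.6, 85.9 and 46.2 (6.16 ± 0.34, adjusted p = 3.7e-71). In both genes all RA libraries stood far above all BMS493 libraries.

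The counts are also given by cluster, with no test between clusters. In cluster a, 3 of 4 tested genes of groups 1 to 8 were higher in RA and 1 lower. In cluster b, 11 of 12 tested genes of groups 1 to 8 were higher in RA and 0 lower, hoxb7a being the uncalled one (-0.01 ± 0.47). In cluster c, 2 of 6 were higher and 4 were not called, among them HOXC8 with 142, 358 and 395 normalised counts in RA libraries and 1129, 177 and 952 in BMS493 libraries, where BMS493 replicate 2 alone fell inside the RA range. The 2 lower genes of groups 1 to 8 lay in clusters a and d. hoxa2b had 15.8, 18.6 and 6.82 in RA libraries and 42.1, 43.5 and 44.3 in BMS493 libraries (-1.68 ± 0.41), and hoxd3a had 9.20, 14.9 and 29.8 against 252, 117 and 209 (-3.38 ± 0.41). hoxd3a therefore ran against its paralogues hoxa3a and hoxb3a (2.84 ± 0.32). In group 11 all 5 tested genes fell. hoxd11a had 0, 0 and 0.852 in RA libraries and 907, 485 and 631 in BMS493 libraries, with a single read in all of RA and a BMS493 over RA ratio of 2375 (counting interval 371 to 81775). hoxc11a and hoxd12a had no read in RA endoderm and were at least 62.1-fold and 40.0-fold lower there. hoxa10b had 0, 3.73 and 0 in RA libraries and 543, 261 and 344 in BMS493 libraries (-8.18 ± 0.88, adjusted p = 2.8e-18). In group 9, 3 of 5 tested genes fell, and HOXB9 and HOXC9 were not called (adjusted p = 0.50 and 0.23). hoxa9b kept 7.88, 113 and 180 in RA libraries against 2662, 1646 and 1957 (-4.38 ± 0.95), RA replicate 1 being the lowest. Falls were also incomplete in other groups, with means of 54.0 in RA against 313 in BMS493 libraries for hoxc10a and 13.4 against 288 for hoxa13b. Of 9 tested meis, pbx and pknox genes, cofactors that bind DNA with Hox proteins, only meis2a was called, with 264, 12.1 and 54.5 in RA libraries. That call, higher in RA, rested on RA replicate 1 and was lost with edgeR (adjusted p = 0.011). Among all genes tested 5.78% were called, so with 9 genes this count is not a result about the cofactors.

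**Figure D2:**
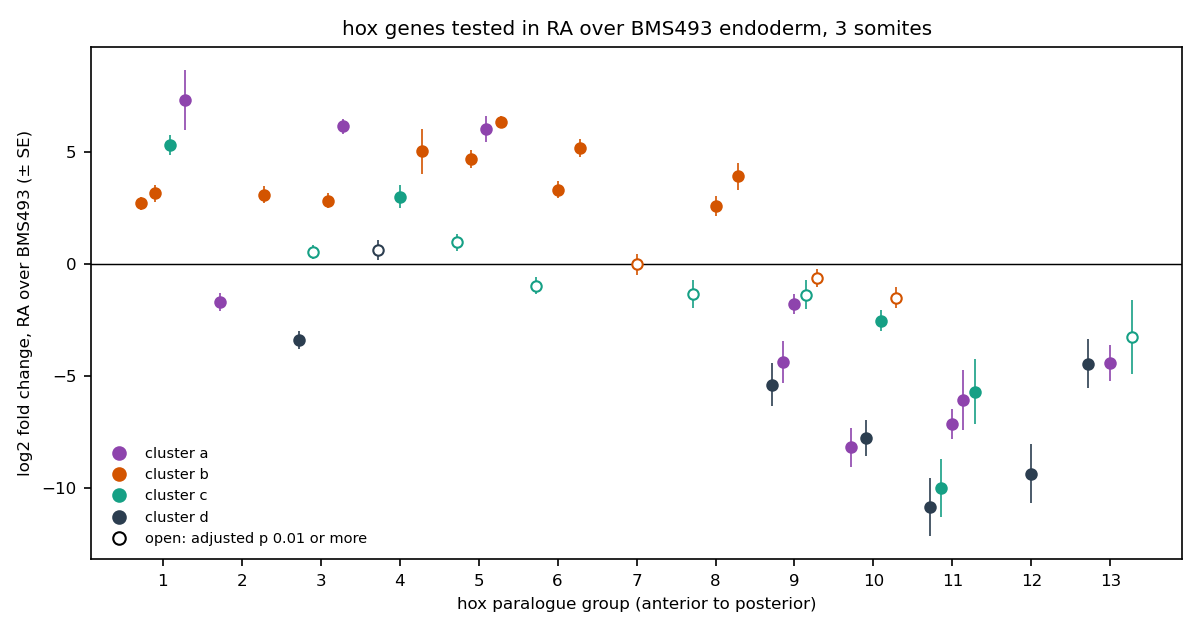
Log2 fold change of RA over BMS493 (± SE) for each of the 42 hox genes tested, by paralogue group and coloured by cluster; open symbols did not pass an adjusted p of 0.01. Called genes lie above 0 in groups 1 to 8 except hoxa2b and hoxd3a, and below 0 in groups 9 to 13.

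Regulators of pancreas and liver development were mostly higher in RA endoderm. Of 29 tested, 16 were higher and 5 lower, with a median of 1.71 (1.63 with genes at 0 placed at their bound), and 12 and 3 were called without the pair of libraries. The list was assembled with the study's interest in the pancreas known, so its count is not independent evidence of that direction. pdx1, the factor that marks pancreatic and duodenal progenitors, had 69.6, 302 and 101 normalised counts in RA libraries and 13.1, 4.24 and 5.78 in BMS493 libraries (4.34 ± 0.73, adjusted p = 1.6e-07). gata6, a zinc-finger factor of endoderm progenitors, had 9463, 2809 and 4787 in RA libraries and 158, 142 and 171 in BMS493 libraries (5.18 ± 0.50, adjusted p = 3.5e-22). BMS493 libraries were tightly grouped for gata6 and RA libraries were not, with RA replicate 1 the highest, yet the groups were well apart for both genes.

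Several members known from endocrine differentiation were among the risen regulators, while others fell or were not called. insm1a, a zinc-finger factor of endocrine precursors, had 286, 319 and 405 normalised counts in RA libraries and 2.63, 4.24 and 0.963 in BMS493 libraries (7.03 ± 0.67, adjusted p = 7.0e-23), and its copy insm1b was also higher (3.23 ± 0.47). neurod, a basic helix-loop-helix factor, had 49.9, 351 and 242 in RA libraries and 1.75, 1.06 and 0.963 in BMS493 libraries (7.40 ± 1.29). ascl1b, which initiates endocrine differentiation in zebrafish, had 549, 1604 and 1358 against 9.64, 20.2 and 24.1 (6.03 ± 0.62, adjusted p = 5.1e-20). For insm1a, neurod and ascl1b every RA library exceeded every BMS493 library by more than 10-fold, with RA replicate 1 the lowest RA library in neurod and ascl1b. rfx6, a factor of endocrine precursors, had 80.1, 54.0 and 41.7 against 0, 0 and 3.85 (5.51 ± 1.17), a call lost without the pair of libraries. pax6a (-2.57 ± 0.78, adjusted p = 0.015), PAX6 (1.71 ± 0.70), MYT1 (0.28 ± 0.55) and pax4, which had no read in RA libraries and 0, 14.9 and 4.81 in BMS493 libraries, were not called, and neurog3 had no read in either group. The related myt1b was higher, close to the threshold (2.16 ± 0.62, adjusted p = 0.0088). Among regulators shared by liver, pancreas and gut, hnf1ba had 5266, 4461 and 3764 in RA libraries and 1363, 1885 and 1106 in BMS493 libraries (1.63 ± 0.24, adjusted p = 1.7e-09), nr5a2 changed by 2.63 ± 0.30 and hnf4a by 2.53 ± 0.53. The copy hnf1bb had 19.7, 38.2 and 10.2 in RA libraries and 1 read in all of BMS493, with an RA over BMS493 ratio of 70.8 (counting interval 12.2 to 2828), a call lost without the pair of libraries. mnx1, a homeobox factor of early beta cells, was 1.40 ± 0.29 higher, and onecut1, a liver and pancreas factor, was 1.2 ± 0.31 higher, a call that edgeR did not make (adjusted p = 0.017).

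The 5 members that fell were isl1, jag1b, nkx2.2a, nkx6.2 and mnx2b. isl1, a LIM-homeobox factor used in endocrine cells but also in other tissues, had 197, 295 and 244 normalised counts in RA libraries and 4342, 2941 and 2968 in BMS493 libraries (-3.80 ± 0.36, adjusted p = 2.1e-23). jag1b, a Notch ligand, had 3.94, 15.8 and 17.9 against 421, 593 and 302 (-5.06 ± 0.39, adjusted p = 1.7e-35), whereas its relative jag2b rose (2.69 ± 0.40). nkx2.2a was lower by a log2 change of -3.28 ± 0.67. The calls of nkx6.2 and mnx2b were lost without the pair of libraries, and BMS493 replicate 2 held 2074 normalised counts of nkx6.2 against 492 and 413 in the other BMS493 libraries.

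**Figure D3:**
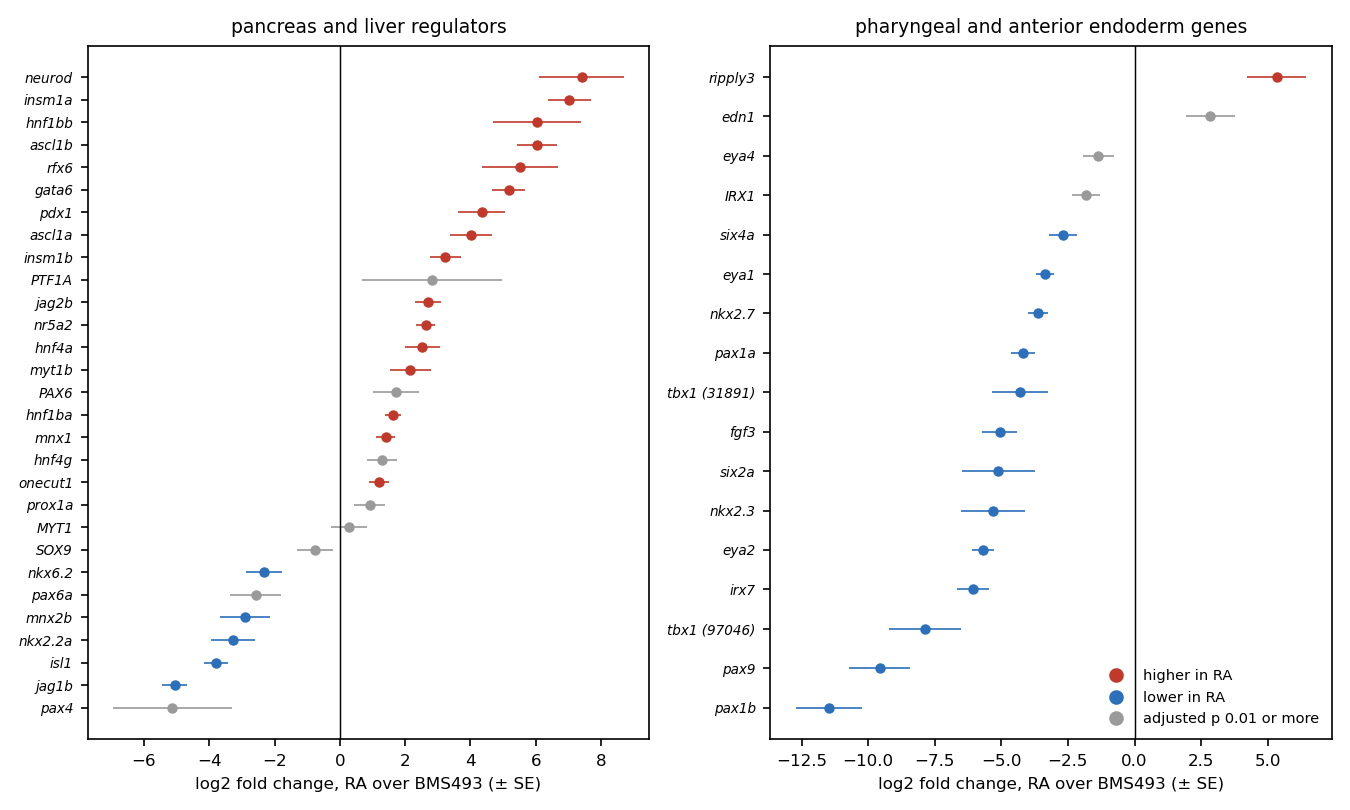
Log2 fold change of RA over BMS493 (± SE) for 29 tested regulators of pancreas and liver (left) and 17 of the 19 tested genes of pharyngeal and anterior endoderm (right), red where higher in RA, blue where lower, grey where the adjusted p was 0.01 or more. In the left panel 16 genes are red and 5 blue, and in the right panel 1 is red and 13 are blue, the members not drawn being counted among the 15 lower in the text.

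Genes of the pharyngeal and anterior endoderm were lower in RA endoderm almost throughout: 15 of 19 tested were lower and 1 higher, with a median of -4.31 (-4.27 with genes at 0 at their bound), and 14 and 1 without the pair of libraries. This list, like those of head, tailbud and signalling genes below, was chosen with earlier results of these data known. Its count is thus not independent evidence of that direction. pax1b, a paired-box factor of the pharyngeal pouches, had no read in any RA library and 714, 396 and 482 normalised counts in BMS493 libraries, at least 171-fold lower in RA. Its relative pax9 had 0, 0.931 and 0.852 in RA libraries and 670, 194 and 627 in BMS493 libraries, with 2 reads in all of RA and a BMS493 over RA ratio of 836 (counting interval 213 to 6366), and pax1a had 13.1, 29.8 and 29.0 against 558, 241 and 538. The RA libraries were at or near 0 for pax1b and pax9 and low but above 0 for pax1a, and BMS493 replicate 2 was the lowest BMS493 library for each. eya2, a transcriptional cofactor and phosphatase, had 19.7, 15.8 and 15.3 in RA libraries and 1200, 970 and 430 in BMS493 libraries (-5.69 ± 0.42, adjusted p = 2.1e-38). Its relative eya1 changed by -3.36 ± 0.35. nkx2.7, a homeobox factor of pharynx and heart field, had 330, 410 and 390 against 5621, 4234 and 4095 (-3.63 ± 0.38), and irx7, an Iroquois factor, had 17.1, 115 and 15.3 against 2766, 3471 and 3583 (-6.06 ± 0.61). Both IDs named tbx1, a T-box factor of the pharyngeal arches, fell: ENSDARG00000097046 had no read in RA and was at least 14-fold lower, while ENSDARG00000031891 had 61.5 in BMS493 replicate 2 against 1013 and 1154 in the others and was not called by edgeR (adjusted p = 0.012). The exception to the direction was ripply3, a repressor of Tbx1 activity described in mouse, with 197, 780 and 1023 in RA libraries and 24.5, 0 and 25.0 in BMS493 libraries (5.33 ± 1.13, adjusted p = 7.9e-05).

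Of 11 general endoderm genes tested, 1 was higher (gata6) and 3 lower, with a median of -0.43. foxa2 and foxa3, forkhead factors of the whole endoderm, had log2 fold changes of -0.43 ± 0.33 and 0.23 ± 0.39, and gata5 of -0.45 ± 0.37. The called ones were foxa1 (-1.42 ± 0.28), cxcr4a (-4.04 ± 0.45), a chemokine receptor that guides migrating endodermal cells, and sox32 (-3.80 ± 0.85), an early inducer of sox17 whose call was lost without the pair of libraries. cxcr4a had 53.9, 68.9 and 129 normalised counts in RA libraries and 669, 1813 and 1672 in BMS493 libraries, with no overlap. DMSO endoderm differed from NE cells at 1487 of 19537 genes tested in that contrast (7.61%), with 829 higher in endoderm (4.24%) and 658 higher in NE cells (3.37%). Of the 561 genes higher in RA, 93 (16.6%) were enriched in DMSO endoderm over NE cells, against 4.37% of the 18971 genes, and 67 (11.9%) were higher in NE cells, against 3.47%. Among the 535 genes lower in RA, 171 (32.0%) were enriched in DMSO endoderm and 51 (9.53%) in NE cells. Each share exceeded that of all genes tested, in both directions. Both contrasts use the same estimate of spread per gene, so all genes tested are not a matched background, and no matched set was compared. The genes higher in RA were 11.2% of the 829 endoderm-enriched genes and the genes lower in RA were 20.6% of them.

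Genes best known from the anterior head were lower in 11 and higher in 1 of 24 tested, with a median of -2.06 (-1.69 with genes at 0 at their bound), and 8 and 1 without the pair of libraries. gsc, an organizer factor also present in anterior endoderm, had 1.31, 2.79 and 4.26 normalised counts in RA libraries and 464, 569 and 1129 in BMS493 libraries (-7.94 ± 0.69, adjusted p = 4.0e-28). dmbx1a had 0, 2.79 and 0 against 559, 552 and 857, with 3 reads in all of RA and a BMS493 over RA ratio of 704 (counting interval 225 to 3192). otx2, a head homeobox factor, had 11.8, 3.73 and 7.67 against 310, 596 and 396 (-5.85 ± 0.55). The BMS493 libraries held at least 310 normalised counts of each and the RA libraries at most 11.8. The six3 copies moved apart: six3b had 0, 6.52 and 19.6 in RA libraries and 249, 275 and 169 in BMS493 libraries (-4.65 ± 0.59), whereas six3a had 339, 128 and 73.3 against 14.9, 1.06 and 0.963 (4.96 ± 0.76). Of 15 tested genes of the hindbrain and midbrain list, 5 were lower and 1 higher, with a median of -0.73 (5 and 0 without the pair of libraries, with a median of 0). gbx2, a homeobox factor needed at the midbrain-hindbrain boundary in mouse, had 3.94, 20.5 and 27.3 in RA libraries and 2811, 2909 and 1781 in BMS493 libraries (-7.12 ± 0.38, adjusted p = 1.7e-75), the lowest adjusted p among genes that fell. Its relative gbx1 changed by -2.77 ± 0.45, and irx3a had 15.8, 85.7 and 135 against 2172, 2298 and 2710 (-4.91 ± 0.62).

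Tailbud genes were lower in 10 and higher in 0 of 17 tested, with a median of -2.54 (8 and 0 without the pair of libraries). tbx16, a T-box factor, had 17.1, 22.4 and 29.0 normalised counts in RA libraries and 546, 698 and 527 in BMS493 libraries (-4.68 ± 0.40, adjusted p = 1.4e-28), and ntla, the zebrafish Brachyury, had 44.7, 142 and 269 against 1729, 2176 and 2559 (-3.82 ± 0.48). The same side held the oscillating genes her1 (-4.25 ± 0.59) and her7 (-5.59 ± 0.60) and msgn1 (-3.67 ± 0.52). cdx4, a posterior homeobox factor of the list, had 2039, 5702 and 5649 in RA libraries and 10765, 5384 and 9865 in BMS493 libraries, which overlapped (adjusted p = 0.19). Of 7 tested genes of the Kupffer's vesicle list, 3 were lower and 0 higher, with a median of -2.25. Without the pair of libraries these counts were 3 and 0, with a median of -1.20. The list summed to 3457 to 13392 in RA libraries and 3641 to 19167 in BMS493 libraries, which overlapped. Its largest fall was that of dand5, the Nodal antagonist of Kupffer's vesicle, with 6.57, 5.59 and 16.2 against 498, 163 and 618 (-5.48 ± 0.75).

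Genes of the fibroblast growth factor, Wnt, BMP and Nodal, and Eph lists were called more often on the lower side. Their median log2 fold changes were 0.10, -0.69, -0.38 and -1.21, and that of the Hedgehog and Notch list was 0.06. For fibroblast growth factors and their responses, 6 of 17 tested were lower and 1 higher (4 and 2 without the pair of libraries). fgf4 had no read in RA libraries and 85, 94.4 and 81.8 normalised counts in BMS493 libraries, at least 28.1-fold lower in RA, and fgf3 had 2.63, 5.59 and 10.2 against 156, 239 and 240 (-5.05 ± 0.66). fgf8a changed by -2.11 ± 0.48 and the response gene etv5a by -2.05 ± 0.30, while the receptor gene fgfr3 was higher (2.27 ± 0.49), a call lost without the pair of libraries. For Wnt signalling, 9 of 24 were lower and 1 higher (4 and 1 without the pair of libraries). fzd10, a Wnt receptor, had 10.5, 22.4 and 24.7 in RA libraries and 775, 440 and 421 in BMS493 libraries (-4.79 ± 0.35, adjusted p = 1.5e-38), wnt11 changed by -2.37 ± 0.43, and the higher gene was the ligand wnt4a (4.35 ± 0.66). For BMP and Nodal signalling, 8 of 24 were lower and 2 higher (5 and 1 without the pair of libraries). The ligand genes bmp2a (-3.13 ± 0.42) and bmp7a (-3.66 ± 0.45) and the antagonist szl, with 1.31, 1.86 and 5.11 in RA libraries and 860, 1498 and 593 in BMS493 libraries, fell together. Eph receptors and ephrins, which sort cells at boundaries, were lower in 7 and higher in 2 of 19 (5 and 0 without the pair of libraries), led by epha7, with 21.0, 18.6 and 11.9 against 336, 416 and 277 (-4.34 ± 0.38), and epha4a (-3.41 ± 0.31). Among Hedgehog and Notch genes 3 of 22 were called in each direction, and the receptor gene notch1b had 1955 in RA replicate 1 against 72.7 and 196 in the other RA libraries and 16.6, 12.7 and 26.0 in BMS493 libraries, a call lost without the pair of libraries.

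Of 30 tested genes of epithelial junctions, 5 were higher in RA and 1 lower (5 and 0 without the pair of libraries), and all 5 were claudins, the proteins that set the permeability of tight junctions. cldn15a, a claudin of the gut epithelium, had 3856, 1814 and 2097 normalised counts in RA libraries and 28.9, 54.1 and 30.8 in BMS493 libraries (6.1 ± 0.51, adjusted p = 5.4e-30). cldn2 had 957, 330 and 400 against 10.5, 4.24 and 6.74 (6.28 ± 0.61), and cldnc had 4082, 3745 and 1689 against 130, 24.4 and 90.5 (5.28 ± 0.53). RA libraries exceeded BMS493 libraries by more than 10-fold in all 3 genes. cldnd (3.67 ± 0.53) and cldnh (2.73 ± 0.66) completed the set, the cldnh call being absent with edgeR (adjusted p = 0.015). cdh1 and epcam, adhesion genes of most epithelia, were not called (-0.09 ± 0.55 and 0.74 ± 0.35). The junction and adhesion gene that fell was bcam (-1.11 ± 0.30), whose call was lost with edgeR (adjusted p = 0.022).

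Among the 10 genes with the largest rise were several outside these lists. enpep, an aminopeptidase of brush borders, had 681, 344 and 103 normalised counts in RA libraries and no read in BMS493 libraries, at least 130-fold higher in RA. SLC22A3, named as an organic cation transporter, had 4885, 2402 and 4178 against 8.76, 0 and 17.3 (8.76 ± 0.51, adjusted p = 1.5e-63). olig2, a basic helix-loop-helix factor best known from motor neuron progenitors, had 417, 225 and 235 in RA libraries and 0, 0 and 1.93 in BMS493 libraries, with 2 reads in all of BMS493 and an RA over BMS493 ratio of 456 (counting interval 120 to 3584). fgg, a fibrinogen chain made by liver, had 114, 222 and 47.7 against 0, 0 and 0.963, with 1 read in all of BMS493 and a ratio of 399 (counting interval 70.6 to 15661). The remaining ones were col7a1l, si:dkey-117n7.5 (at least 64.7-fold higher in RA) and si:dkey-117n7.2. Each of these genes was on in all RA libraries and at or near 0 in all BMS493 libraries.

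**Figure D4:**
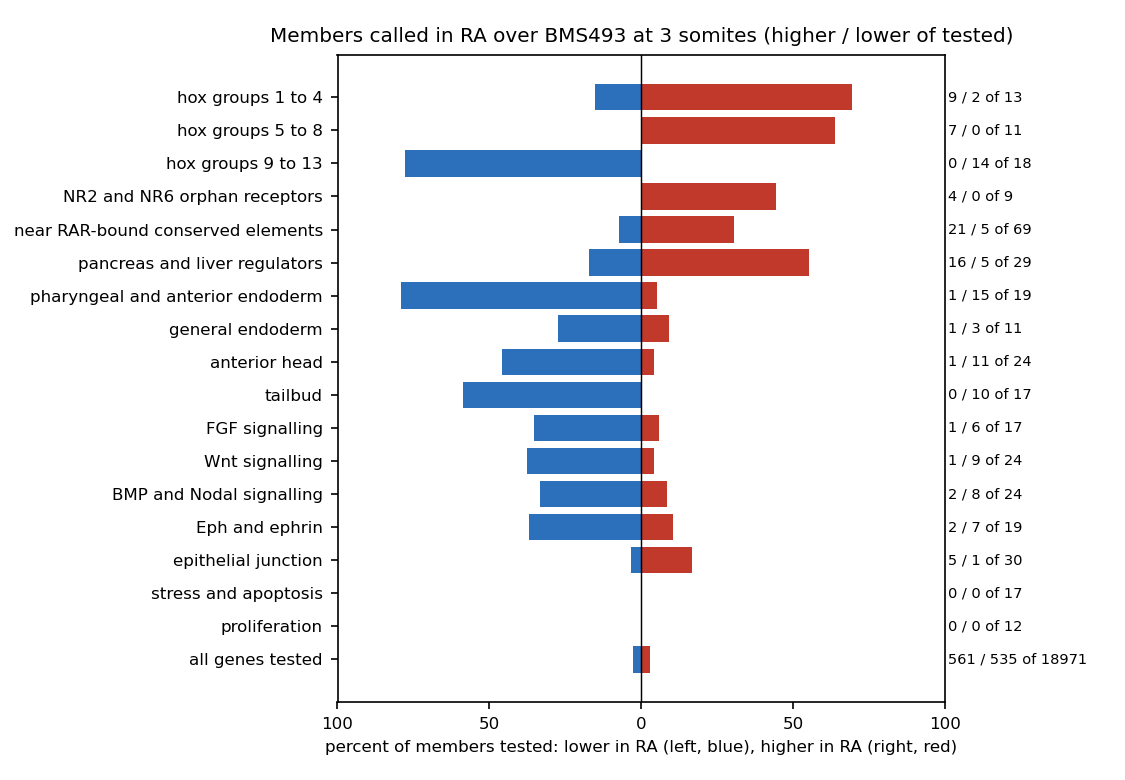
Share of the tested members of each gene list called higher (right, red) or lower (left, blue) in RA over BMS493 endoderm, in percent, with the counts at the right edge and all 18971 genes tested in the last row. Hox genes of groups 9 to 13 hold 0 higher and 14 lower of 18, pharyngeal genes 1 and 15 of 19 and tailbud genes 0 and 10 of 17. The stress and proliferation lists hold no called gene, against 5.78% called among all genes tested.

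Marker lists of cells that the GFP gate could also hold were summed in each library. Neural markers summed to between 3186 and 4180 normalised counts in RA libraries and between 13247 and 17902 in BMS493 libraries, with 2 of 16 tested higher and 4 lower, and the lower ones included sox3 (286, 740 and 601 against 7322, 4905 and 5783) and her9 (172, 317 and 428 against 3862, 2613 and 7235). sox3 and her9 made most of the sum in each BMS493 library. The neural list did not fall as a whole: 10 of 16 tested were not called, with a median of -0.42. Without the pair of libraries 2 were higher and 3 lower. The neural sum was 25176 to 27707 in NE cells, so the BMS493 libraries lay between the RA libraries and NE cells. In DMSO endoderm it was 10181 to 15292, a range that overlapped that of the BMS493 libraries. sox19a, a neural marker of the list, had 40.7 to 174 in RA libraries and 135 to 173 in BMS493 libraries against 5031 to 5522 in NE cells. Mesodermal markers summed to between 8135 and 10283 in RA libraries and between 1150 and 1633 in BMS493 libraries. The sum was 8566 to 10069 in NE cells, so that the RA sum was at their level, and 1527 to 1738 in DMSO endoderm. The list did not rise as a whole: of 16 tested, 5 were higher and 1 lower (4 and 0 without the pair of libraries), with a median of -0.18. The RA sum was carried by osr1 (3687, 3881 and 4431 against 838, 399 and 595), ripply1 (3.49 ± 0.42) and hand2 (3.10 ± 0.51). The paraxial markers ripply1, myf5 and meox1 did not move together, as ripply1 rose and the others did not. myf5 had 0 to 20.4 in RA libraries and 8.76 to 20.2 in BMS493 libraries against 1239 to 1885 in NE cells. meox1 had 11.8 to 79.2 in RA libraries and 85.9 to 167 in BMS493 libraries against 1895 to 2427 in NE cells. Notochord markers summed to 32989 in RA replicate 1, of which the collagen gene col2a1a made 31884, against 7707 and 6115 in the other RA libraries and 5453 to 8991 in BMS493 libraries, with 2424 to 3168 in NE cells. Of 10 tested, 2 were higher and 3 lower (0 and 2 without the pair of libraries), with a median of -2.47. Blood and endothelial markers were lower in 4 and higher in 0 of 12 tested (1 and 0 without the pair of libraries), among them tal1 (-3.91 ± 0.69). Markers of epidermis and the enveloping layer summed to between 4287 and 10157 in RA libraries and between 8461 and 10835 in BMS493 libraries, against 13259 to 15736 in NE cells, with 4 of 20 tested lower and 1 higher (4 and 0 without the pair of libraries). Among the lower ones was tp63, a factor of basal epidermis, with 273, 183 and 227 in RA libraries against 974, 1321 and 798 in BMS493 libraries (-2.18 ± 0.40). It had 953 to 1663 in NE cells and 752 to 2140 in DMSO endoderm, ranges that the BMS493 libraries overlapped. foxi1, a forkhead factor of ectodermal ionocyte and placode precursors, had 35.5, 8.38 and 23.9 in RA libraries against 285, 197 and 240 in BMS493 libraries. Unlike the epidermal sum, the keratin gene krt8 was lower in NE cells (1656 to 1764) than in RA (1833 to 4942) or BMS493 libraries (5567 to 6797). In DMSO endoderm krt8 had 5132 to 6645. Stress and apoptosis genes (0 of 17 called), proliferation genes (0 of 12) and neural crest genes (0 of 6) held no call with DESeq2 or edgeR, and 3, 1 and 1 of them had an unadjusted p under 0.05 with either tool. Over all genes tested DESeq2 called 5.78%, so lists of this size would hold few calls in any case. Their lack of calls thus cannot show that these genes did not change. The part of other cell types in the gene groups above was not tested.

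A list of 95 genes was taken from the study's chromatin immunoprecipitation, made without any of these RNA libraries. That immunoprecipitation used whole embryos that expressed an injected, tagged RAR and had received RA, not sorted endoderm. The listed genes lie nearest to conserved elements bound by RARs, and 69 of them were tested. Of these, 21 were higher in RA and 5 lower, with a median of 1.04 against -0.00 over all genes tested, and 19 and 4 were called without the pair of libraries. Several members are described above (cyp26a1, nrip1a, nr2f2, hoxa3a, hnf1ba and jag1b). Of those not yet named, skap1, a signalling adaptor, had 792, 550 and 980 normalised counts in RA libraries and 13.1, 14.9 and 23.1 in BMS493 libraries (5.51 ± 0.42, adjusted p = 2.7e-36). nfia, a nuclear factor I protein, changed by 2.58 ± 0.44, and TSHZ3, a teashirt zinc-finger factor, by 3.06 ± 0.49. The members that fell were irx5a (17.1, 6.52 and 46.0 against 326, 558 and 408), epha7, jag1b, eya1 and emx2, the emx2 call being lost without the pair of libraries.

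Setting each group against the DMSO libraries shows where on the scale the difference lay. These 2 comparisons share the DMSO libraries, and for each gene the RA over BMS493 value is their difference. For dhrs3a the log2 fold change was 3.47 for RA over DMSO and -5.87 for BMS493 over DMSO, and for nr2f1a it was 2.39 and -2.96, so the treated groups lay on opposite sides of the DMSO level. For cyp26a1 (4.37 and -0.05), lrata (7.90 and -0.95) and hoxb5a (4.40 and -0.30) the RA side held nearly all of the difference, as it did among fallen genes for rarga (-6.22 and -0.47), jag1b (-4.82 and 0.24) and eya2 (-6.01 and -0.33). For nr2f2 (0.45 and -2.42) and nrip1b (0.49 and -2.14) the BMS493 side held most of it. Some genes passed the test only between RA and BMS493 and in neither comparison with DMSO, and the 6 with the largest change, among those whose groups did not overlap and whose higher group averaged at least 50 normalised counts, were BICD1 (1 of 2), tbx5b, zgc:174855, ENSDARG00000035759, rfx6 and PIK3CG. tbx5b, a T-box factor of heart and fin, had 125, 18.6 and 71.6 normalised counts in RA libraries, 0, 0 and 1.93 in BMS493 libraries and 0.913, 10.3 and 14.6 in DMSO libraries. PIK3CG, a phosphoinositide kinase subunit, had 39.4, 72.7 and 46.9 in RA libraries, 3.50, 0 and 0 in BMS493 libraries and 19.2, 15.5 and 7.30 in DMSO libraries. Their DMSO values lay between those of the treated groups or touched the BMS493 range. zgc:174855 was the only one of the 6 that was lower in RA, and its call was lost with edgeR (adjusted p = 0.012) and without the pair of libraries, as were those of ENSDARG00000035759 and rfx6 without the pair.

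The same contrast at 8-S, on libraries of its own, called 960 of the 18971 genes (5.06%), 491 higher and 469 lower in RA, and edgeR called 618 (3.68%), 310 higher (1.85%) and 308 lower (1.83%). Of the 561 genes higher at 3-S, 345 were higher at 8-S too (61.5% of the 3-S list and 70.3% of the 8-S list, against 2.59% of all genes tested), and of the 535 lower genes 329 were lower at 8-S (61.5% and 70.1%, against 2.47%). No gene was called in opposite directions. The contrasts of both stages use the same estimate of spread per gene, so all genes tested are not a matched background for these shares. The sign was the same at 8-S for 556 of the 561 and 529 of the 535. The median log2 fold change of the called genes was 2.31 and -2.10 at 8-S, against 2.92 and -2.67 at 3-S. They were chosen by their 3-S values, which favours large changes at that stage, so the smaller 8-S medians cannot be read as a decline. dhrs3a stood at 9.34 ± 0.46 at 3-S and 9.66 at 8-S, hoxb5b at 6.36 and 6.24, gbx2 at -7.12 and -6.03, and eya2 at -5.69 and -5.40. cyp26b1 stood at 7.25 at 3-S and 4.43 at 8-S and insm1a at 7.03 and 9.95. Among genes called at 3-S and not at 8-S were aldh1a2 (2.7 and 1.58), hoxa9b (-4.38 and -2.35) and etv2, a factor of blood and vessel precursors (-2.49 and 0.01), whose 3-S call was lost with edgeR (adjusted p = 0.012) and without the pair of libraries. The difference of the effect between stages passed the threshold for 0 of 29144 genes with DESeq2, with 709 at an unadjusted p under 0.05, and for 0 of 16800 with edgeR, with 461 at an unadjusted p under 0.05, so none of these stage differences was larger than the spread among replicates allows to call. The lowest adjusted p, 0.16, was that of eng2a.

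**Figure D5:**
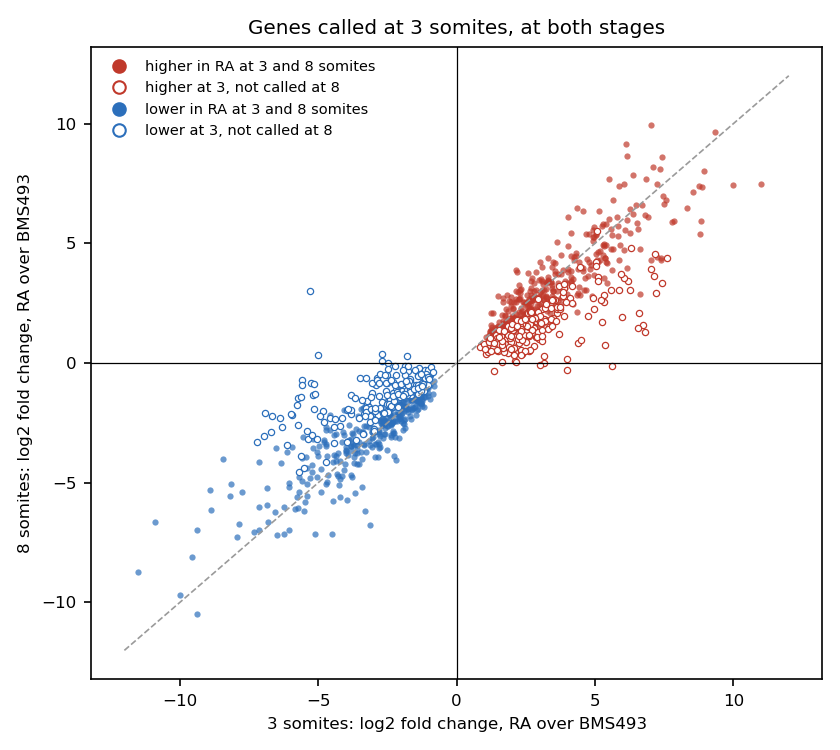
Log2 fold change of RA over BMS493 at 3-S (x axis) and 8-S (y axis) for the genes called at 3-S, red where higher in RA and blue where lower, filled where also called at 8-S and open where not; the dashed line marks equal values. Filled symbols number 345 among the higher and 329 among the lower genes, and the 2 groups lie in opposite quadrants apart from 5 and 6 genes.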

How the data were processed

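RNA-seq was made from GFP+ and GFP- cells sorted from Tg(sox17:GFP) embryos. RNA was reverse transcribed from an oligo-dT primer and libraries were made with the Nextera XT kit. The authors aligned the reads to the Zv9 zebrafish genome with STAR 2.5.4, per the submitters' processing notes, and deposited 1 table of raw read counts per gene and library. Its unstranded counts were used here, and the rows for unmapped, multimapping, ambiguous and gene-less reads (11.6 to 20.8% of reads for the last, in the 6 libraries compared) were left out of library sizes and tests. Gene names came from the study's own pairs of IDs and names (3110 IDs) and from a symbol table, and 22589 of 33737 IDs had a name.

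Groups were taken from the labels. DESeq2 1.42.0 in R 4.3.3 was fitted to all 24 libraries with 1 term per group, which share 1 estimate of the spread per gene, with median-of-ratios size factors, default filters, unshrunken log2 fold changes and Benjamini-Hochberg adjustment over all genes tested. A gene was called at an adjusted p under 0.01. Normalised counts are deposited counts divided by the size factor. For groups without a read, bounds set each library to 3 reads, and with 1 to 3 reads the 95% interval of the ratio covers counting error only.

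The alternatives were edgeR 4.0.16 (quasi-likelihood test, TMM), other size factors, filters, thresholds and sets of libraries, the strand-specific columns summed, the replicate number as a block, and each library left out in turn. The scripts were tested on simulated data. The members and gene lists were chosen with earlier results of these data known. The genes named were members of the gene lists, the 10 largest rises and falls among called genes whose groups did not overlap and whose higher group averaged at least 50, the 5 of lowest adjusted p in each direction, up to 6 called only in the direct contrast, and members of counted groups of 5 or fewer. No reference genome was at hand, so no coordinates or sequences are given. Some members of the lists are counted but not reported by name here.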

Additional observations from a re-analysis of the deposited data

How the results depend on the processing

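The count of 1096 genes differing between RA and BMS493 endoderm at 3-S stayed within 1.5 times under TMM factors (1098), total-count factors (1075), other filters (1000 and 1085), the 12 libraries of 3-S (1008), the 6 libraries alone (795) and summed strand columns (1102). It moved further with edgeR (697), edgeR on the 6 libraries (310), a test against a log2 fold change of 1 (368) and, both added after seeing the data, without RA replicate 1 and BMS493 replicate 2 (628, or 325 with edgeR). The causes of these shifts were not tested, and some of these fits also held fewer libraries. Leaving out 1 library gave 770 to 1012 calls, the lowest without RA replicate 1. At 8-S the 960 calls became 618 with edgeR, 1529 at an adjusted p under 0.05 and 706 to 886 with 1 library left out. The stage difference held 0 calls throughout except with 1 library left out (0 to 2, with 2 without RA replicate 2 of 3-S and 1 without RA replicate 3 of 8-S). The 1487 genes of DMSO endoderm over NE cells became 2235 at an adjusted p under 0.05 and 1032 to 1289 with 1 library left out. No call reversed its direction under any of these alternatives. Of 205 called genes named here or in the lists, 171 were also called by edgeR and 155 of 204 without the pair of libraries. The lowest shares were 112 of 195 with edgeR on the 6 libraries, 114 of 205 with edgeR without the pair and 123 of 205 against a log2 fold change of 1.

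RA and BMS493 libraries of the same replicate number had correlations of their deviations of -0.19, -0.05 and 0.45. Pairs of different numbers had -0.37 to 0.31. With 3 libraries a group, these values cannot show whether the numbers mark shared clutches or batches. With the replicate number as a block, 1088 genes were called at 3-S, 772 in the 6 libraries alone, 989 at 8-S and 1519 between DMSO endoderm and NE cells. With 3 libraries a group and at least 9971059 gene reads each, genes with few reads had wide errors, and genes without a read in a group are given as bounds.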
